A study of Mus musculus with 2 samples.

Results

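Interferon-stimulated genes were examined in Th17-polarized cells with and without deletion of *Fak*. The genes were chosen by symbol: 45 antiviral, nucleic acid sensing and interferon-γ-inducible GTPase genes, of which 44 had a row among the 23282 rows of the count tables. The other one, *Rnf213*, had no row under its symbol or its synonyms and was not analysed here. The rule itself used no measured value.

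Naïve CD4 T cells from female mice with floxed alleles of *Fak* (gene symbol *Ptk2*), which encodes focal adhesion kinase, were activated, transduced with a control retrovirus (control) or with a retrovirus encoding Cre recombinase (RV-Cre), and sorted as GFP+ cells. Both cultures were kept for 3 days with anti-CD3 at 10 μg/ml, anti-CD28 at 5 μg/ml, IL-6 at 50 ng/ml, TGF-β1 at 1 ng/ml, TNF at 1 ng/ml, IL-1β at 2 ng/ml, and neutralizing antibodies to IFN-γ and IL-4, each at 5 μg/ml. The genotype label of the control sample reads WT, whereas its title gives floxed *Fak* with the control virus, and the title was followed. RNA was sequenced from the 3′ end, with 1 library per condition. A library with Cre but unfloxed *Fak* was not analysed here, so Cre itself and the loss of *Fak* cannot be told apart. Likewise, fewer cells of a type and less RNA per cell cannot be told apart in RNA from a sorted population.

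The control library held 13799264 reads and the RV-Cre library 12305010. *Ptk2* had 110 reads in control and 31 in RV-Cre cells. These reads come from the 3′ end of the transcript, and the position of the floxed exon is not given in the sources used here, so they do not check the deletion itself. The ribosomal RNA row *Rn45s* took 8.5% of the reads in control and 14.6% in RV-Cre cells. *Cd4* had 1489 and 1342 reads, and *Il17a* 424 and 103, in the same order. Throughout, paired read counts give the control library first. With 1 library per condition there was no replicate spread and no test. The intervals given below are exact 95% Clopper-Pearson intervals of the ratio of RV-Cre to control, cover counting error only, and compare the libraries rather than the conditions.

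Interferons are secreted proteins that put cells into an antiviral state. Type I interferons (IFN-α and IFN-β) bind IFNAR1 and IFNAR2, whose kinases JAK1 and TYK2 activate STAT2. Together with IRF9, STAT2 is part of the ISGF3 complex, which binds the interferon-stimulated response element (ISRE). IFN-γ binds IFNGR1 and IFNGR2, and through JAK1 and JAK2 leads to the binding of the gamma-activated sequence (GAS). In T cells JAK-STAT signalling also shapes lineage choice, and IFN-γ is known to restrain Th17 differentiation, which is why it is neutralized in Th17 cultures.

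The ISRE and the GAS were searched in the sequences around the start site. The ISRE motif searched was GAAA, any 2 bases and GAAA, on both strands. In 300-base windows from RefSeq (GRCm38.p6, 250 bases before to 50 after the start), 3.99% of all 27025 genes held it, against 17 of the 34 members matched in the promoter table (50%). The GAS motif, TTC, any 3 bases and GAA, which reads the same on both strands, lay in 9.55% of all genes and in 11 of the 34 members (32.4%). A match is a run of letters and does not show binding. Below are up to 160 bases before the start of genes that carry the results, each 5′ to 3′ in the direction of transcription. Capitals mark the ISRE letters in *Isg15*, *Ifit1*, *Ifit3*, *Bst2* and *Igtp*, and the GAS letters in *Irf1* and *Samhd1*. The first 3 are shown because their reads were lower with Cre by 2-fold or more, *Bst2* because it was lower by a smaller ratio, *Igtp* because its counts barely differed, *Irf1* as a lower transcription factor gene, and *Samhd1* as the higher member with the narrowest interval.
Isg15: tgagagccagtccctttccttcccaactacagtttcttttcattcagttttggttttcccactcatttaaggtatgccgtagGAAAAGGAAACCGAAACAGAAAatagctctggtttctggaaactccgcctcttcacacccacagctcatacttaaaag
Ifit1: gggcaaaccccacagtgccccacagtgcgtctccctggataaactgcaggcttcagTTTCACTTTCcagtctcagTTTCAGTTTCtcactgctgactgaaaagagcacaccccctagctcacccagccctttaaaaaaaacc
Ifit3: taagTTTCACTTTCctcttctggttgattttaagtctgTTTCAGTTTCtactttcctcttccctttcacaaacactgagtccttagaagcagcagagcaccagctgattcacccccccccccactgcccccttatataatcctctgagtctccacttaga
Bst2: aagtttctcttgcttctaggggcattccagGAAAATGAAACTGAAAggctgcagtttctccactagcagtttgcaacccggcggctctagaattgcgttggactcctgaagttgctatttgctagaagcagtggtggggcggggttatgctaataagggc
Igtp: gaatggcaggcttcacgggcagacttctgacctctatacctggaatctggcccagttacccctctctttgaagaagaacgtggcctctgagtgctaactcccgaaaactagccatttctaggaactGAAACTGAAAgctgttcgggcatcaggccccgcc
Irf1: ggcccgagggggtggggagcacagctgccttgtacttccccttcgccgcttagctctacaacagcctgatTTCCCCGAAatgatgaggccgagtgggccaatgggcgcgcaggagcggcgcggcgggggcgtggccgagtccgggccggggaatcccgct
Samhd1: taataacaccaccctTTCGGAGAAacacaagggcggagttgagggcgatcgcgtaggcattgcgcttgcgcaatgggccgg
The stretches are chr4:156200819-156200978 (minus strand) for *Isg15*, chr19:34640729-34640870 (plus) for *Ifit1*, chr19:34583369-34583528 (plus) for *Ifit3*, chr8:71537473-71537632 (minus) for *Bst2*, chr11:58199396-58199555 (plus) for *Igtp*, chr11:53769854-53770013 (plus) for *Irf1* and chr2:157135266-157135346 (minus) for *Samhd1*. Positions below count back from the RefSeq start. The stretches of *Ifit1* and *Samhd1* end 18 and 169 bases short of it, because GENCODE places an earlier start there, and the others end at it. *Isg15* carries 3 overlapping ISRE matches that run from 78 to 57 bases before the start. *Ifit1* and *Ifit3* carry 2 each on the other strand, at 104 to 95 and 85 to 76 bases before the start in *Ifit1* and at 156 to 147 and 122 to 113 in *Ifit3*. In *Bst2* 2 overlapping matches run from 130 to 115, and in *Igtp* 1 lies at 34 to 25. *Samhd1* had no ISRE in its window, and its single GAS match lies 235 to 227 bases before the start.

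The interferon-stimulated genes did not move one way between the libraries. Values were scaled by trimmed mean of M values (TMM), and ratios are differences of log2(normalized reads + 1), RV-Cre minus control. A gene was kept when it reached 4 on that scale (15 normalized reads) in at least 1 library, and called at a difference of 2-fold or more. Of the 44 genes, 40 were kept, 7 of them through 1 library only, so that those with a low count in the other library had to differ. *Oasl1*, *Mx1*, *Cmpk2* and *Ifi44* did not reach the minimum. In the RV-Cre library 5 members were at least 2-fold higher, beside 14.2% of all 12112 rows kept, and 7 were at least 2-fold lower, beside 12.3% of all rows. The higher members were *Samhd1*, *Parp14*, *Ddx58*, *Oas2* and *Ifih1*. The lower members were *Iigp1*, *Irgm1*, *Isg20*, *Isg15*, *Ifit1*, *Ifit3* and *Oas3*. Ratios ran from -1.69 to 3.02 with a median of 0.17, beside -0.01 over all rows kept.

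**Figure D1:**
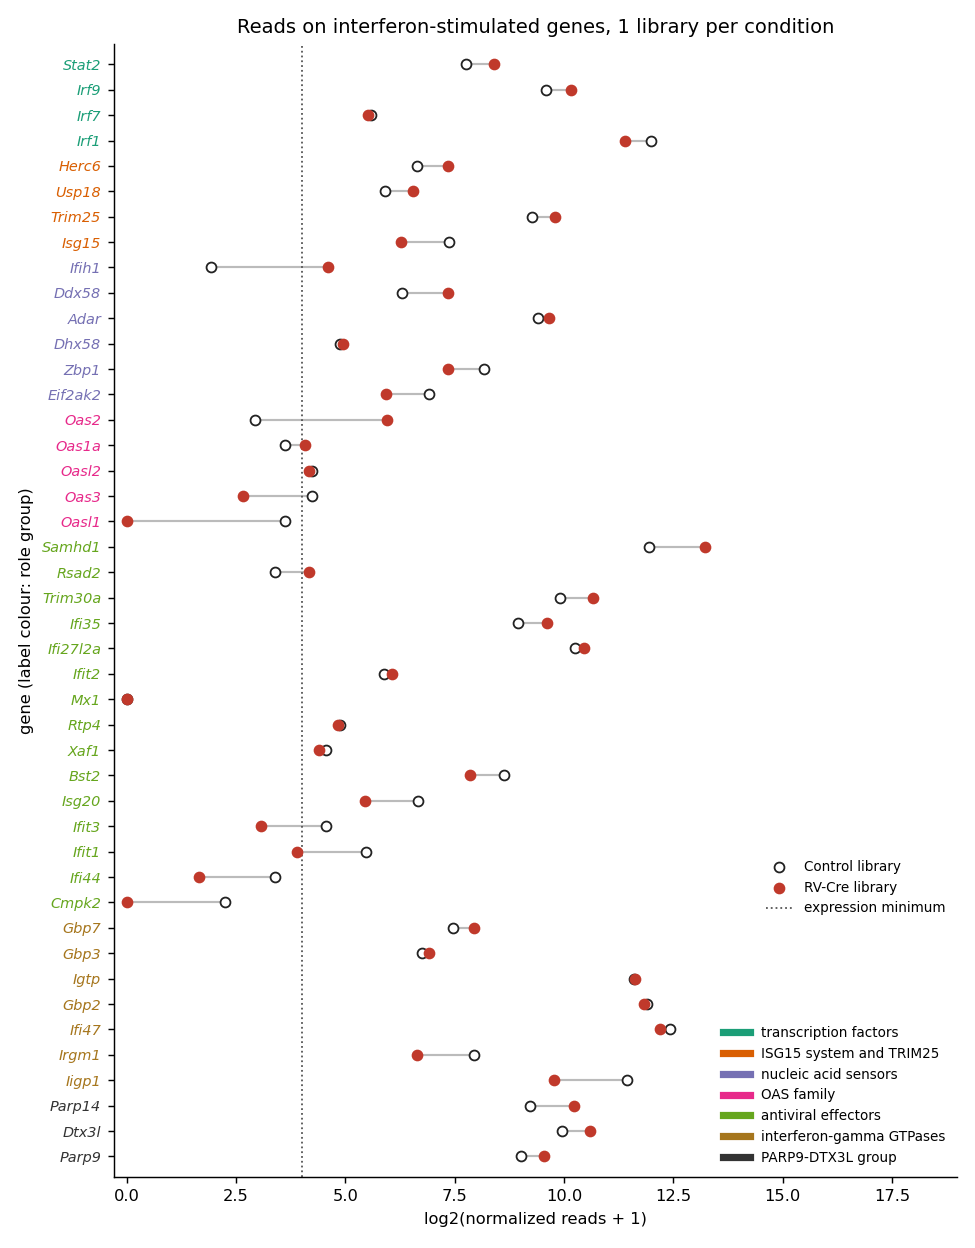
Reads per gene on the log2(normalized reads + 1) scale (horizontal axis) for the 44 interferon-stimulated genes (vertical axis, grouped by role), with an open circle for the control library and a red one for the RV-Cre library, and no error since there was 1 library per condition. The dotted line is the minimum of 4, *Mx1* lies at 0 in both libraries, and *Oasl1* and *Cmpk2* lie at 0 in the RV-Cre library.

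The counting interval of the ratio lay above 1 for 17 of the 40 members, beside 36.7% of all rows kept, and below 1 for 13, beside 38.1%. It included 1 for the other 10. Under scaling by *Gapdh* the interval lay above 1 for 23 and below 1 for 9, beside 58.4% and 19.3% of all rows kept. Among the 33 members that reached the minimum in both libraries, 3 were higher, beside 7.19% of the 10537 rows that did so, and 4 were lower, beside 10.4%. Their median was 0.16, beside -0.05 over those rows. The summed reads of the 44 genes were 34435 in control and 34712 in RV-Cre cells, or 32416 and 36874 after normalization.

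The counts were also taken by level. Of the 17 members with a mean over both libraries of at least 8 on the log2 scale, 12 had a positive ratio and the median was 0.52, beside -0.07 over the 6276 rows at that level. Of these 17, 2 were at least 2-fold higher, beside 3.74% of all such rows, and 1 was lower, beside 7.6%. The interval lay above 1 for 11 of them, beside 35.6% of such rows, and below 1 for 5, beside 45.6%. The 23 members kept below that level had a median of -0.03, beside 0.13 over all such rows, and 3 of them were higher, beside 25.4%, and 6 lower, beside 17.4%.

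**Figure D2:**
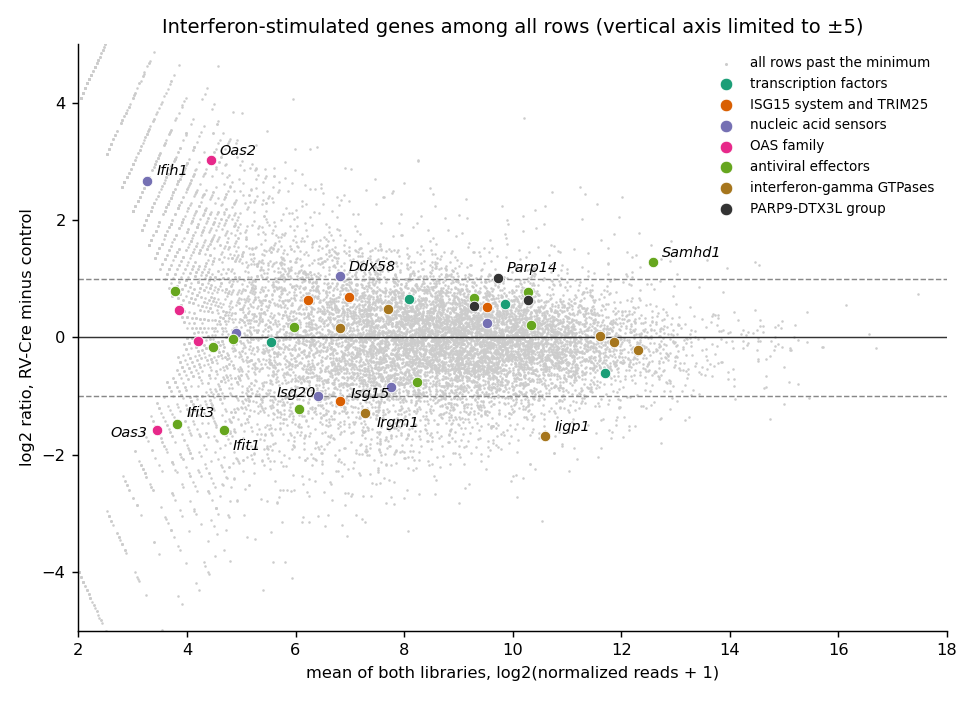
Log2 ratio of RV-Cre to control (vertical axis) against the mean log2(normalized reads + 1) of both libraries (horizontal axis) for all rows kept (grey) and for the 40 members kept (coloured by role), with the 12 called members named and dashed lines at 2-fold. Most called members lie below a mean of 8, where grey points also spread widely, whereas *Samhd1*, *Parp14* and *Iigp1* lie above it.

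The transcription factor genes were split. *Stat2*, a subunit of ISGF3, had 229 reads in control and 319 in RV-Cre cells, a log2 ratio of 0.65 (ratio 1.57, interval 1.32 to 1.87). *Irf9*, the DNA-binding subunit of ISGF3, had 811 and 1069 reads, a log2 ratio of 0.57 (1.49, 1.36 to 1.63). Both ISGF3 genes were therefore higher in the RV-Cre library by less than 2-fold. *Irf1*, a factor induced by IFN-γ, went the other way with 4347 and 2532 reads, a log2 ratio of -0.61 (0.657, 0.626 to 0.690). *Irf7*, which amplifies type I interferon production, had 50 and 42 reads, and its interval included 1. Exons of *Irf1*, *Irf7* and *Irf9* overlap other genes in GENCODE M21, in *Irf9* those of *Rnf31* on the same strand, so part of their reads could belong to a neighbour.

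Within the ISG15 system, the modifier and its enzymes had opposite signs. *Isg15* (chr4:156199424-156200818), a ubiquitin-like protein that is attached to other proteins and also secreted, had 174 reads in control and 72 in RV-Cre cells, a log2 ratio of -1.09 (0.467, 0.350 to 0.618). *Usp18*, which removes ISG15 from proteins and dampens signalling at IFNAR2, had 63 and 87 reads, a log2 ratio of 0.63 (1.56, 1.11 to 2.19). *Herc6*, the mouse ligase for ISG15, had 105 and 151 reads, a log2 ratio of 0.69 (1.62, 1.26 to 2.10). Exons of *Herc6* overlap *Gm45193* on the same strand and those of *Usp18* overlap *Gm44148* on the other. Part of their reads could thus belong to a neighbour. *Trim25*, a ubiquitin ligase that acts on RIG-I, had 655 and 834 reads, a log2 ratio of 0.52 (1.44, 1.30 to 1.59). Only *Isg15* of these 4 was lower, and only *Isg15* passed 2-fold, beside 12.3% of all rows kept that were at least 2-fold lower. The interval lay above 1 for 3, beside 36.7% of all rows kept, and below 1 for 1, beside 38.1%.

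The sensors of viral nucleic acids ranged from higher to lower. *Ddx58* (chr4:40203773-40239828), which encodes the RNA sensor RIG-I, had 82 and 151 reads, a log2 ratio of 1.05 (2.08, 1.58 to 2.75). *Ifih1* (chr2:62595798-62646255), which encodes MDA5, the sensor of long double-stranded RNA, had 3 and 22 reads, a ratio of 8.28 with a wide interval of 2.49 to 43.2. *Dhx58*, encoding LGP2, a regulator of both, had 30 and 28 reads, and its interval included 1. *Ifih1* reached the minimum in the RV-Cre library alone and was kept through it. *Adar*, an enzyme that edits double-stranded RNA, had 719 and 756 reads, a log2 ratio of 0.25 (1.19, 1.07 to 1.32). In *Adar*, 50% of the 50-base words in its last 500 bases were shared with *Chrnb2*, which lies on the other strand. *Zbp1*, a sensor of Z-form nucleic acids that can start necroptosis, had 307 and 151 reads, a log2 ratio of -0.85 (0.555, 0.454 to 0.677). *Eif2ak2*, encoding the kinase PKR that halts translation, had 127 and 56 reads, a log2 ratio of -0.99 (0.498, 0.357 to 0.687), which lies just short of 2-fold on this scale. Its exons overlap *Gm26637* and *n-R5s29* on the other strand.

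The oligoadenylate synthetases make the messenger that activates RNase L, and all had few reads. *Oas2* (chr5:120730333-120749853) had 7 reads in control and 57 in RV-Cre cells, a log2 ratio of 3.02 (9.19, 4.18 to 23.9). Its neighbour *Oas3* (chr5:120753098-120777661) had 19 and 5, a log2 ratio of -1.58 (0.297, 0.0867 to 0.822). *Oas2* reached the minimum in the RV-Cre library alone and *Oas3* in the control library alone, so each was kept through the library where it was high. *Oasl2* had 19 and 16 reads, a log2 ratio of -0.07 (0.950, 0.457 to 1.95). *Oas1a* had 12 and 15 reads, and its interval also included 1. *Oas1a* shares 56.1% of its 3′ words with *Oas1g*, which had 6 and 12 reads, so reads could be split between them. *Oasl1*, a catalytically inactive relative that represses translation of *Irf7*, had 12 reads in control and 0 in RV-Cre cells. Its interval allows a ratio of up to 0.406, and it lay below the expression minimum in both libraries.

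Of the 12 antiviral effectors kept, 1 was at least 2-fold higher and 3 were lower, beside 14.2% and 12.3% of all rows kept. *Samhd1* (chr2:157097533-157135265), which depletes the nucleotide pool that reverse transcription needs, had 4177 reads in control and 9019 in RV-Cre cells, a log2 ratio of 1.28 (2.44, 2.35 to 2.53). *Trim30a*, a ubiquitin ligase, had 1013 and 1528 reads, a log2 ratio of 0.77 (1.70, 1.57 to 1.84). *Ifi35*, a partner of the NMI protein, had 522 and 736 reads, a log2 ratio of 0.67 (1.59, 1.42 to 1.78). *Ifi27l2a* had 1287 and 1313 reads, a log2 ratio of 0.20 (1.15, 1.07 to 1.24). These were the 4 effectors whose interval lay above 1, beside 36.7% of all rows kept. It lay below 1 for 4 others, beside 38.1%.

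The IFIT proteins, which bind foreign RNA, were split between low counts. *Ifit1* (chr19:34640871-34650009), which recognizes RNA lacking the host cap methylation, had 46 and 13 reads, a log2 ratio of -1.58 (0.319, 0.158 to 0.600). *Ifit3* (chr19:34583531-34588731) had 24 and 7 reads, a log2 ratio of -1.48 (0.329, 0.120 to 0.787). Of its 3′ words 14.9% were shared with *Ifit3b*, which had 4 and 0 reads. *Ifit2* had 62 reads in each library. *Ifit1* and *Ifit3* reached the minimum in the control library alone, so they could be kept only because they were high there.

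*Isg20* (chr7:78913424-78920396), an exonuclease, had 107 and 40 reads, a log2 ratio of -1.23 (0.422, 0.286 to 0.612). *Bst2*, encoding tetherin, which holds budding virions at the cell surface, had 416 and 217 reads, a log2 ratio of -0.76 (0.589, 0.497 to 0.695). *Bst2* is also one of the listed markers of plasmacytoid dendritic cells, a list that summed to 781 normalized reads in control and 550 in RV-Cre cells. Of the other markers in that list, *Tcf4* had 389 and 246 reads, *Ccr9* 25 and 54, *Siglech* 0 and 1, and *Klk1* 0 in both. Their part in the value of *Bst2* was not tested. The remaining effectors were near or under the minimum. *Rsad2*, encoding viperin, had 10 and 16 reads, *Rtp4* 30 and 26, and *Xaf1* 24 and 19, and all 3 intervals included 1. *Ifi44* had 10 and 2 reads, a ratio of 0.226 with an interval of 0.0240 to 1.06, and *Cmpk2* 4 and 0. *Mx1*, a dynamin-like GTPase that blocks influenza viruses, had 0 reads in both libraries, where a count of 0 allows up to 3 reads in each.

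The IFN-γ-inducible GTPases differed by less than 2-fold in 5 of 7 cases, as did 8901 of all 12112 rows kept, which is a similar share. These proteins gather on membranes around intracellular pathogens. *Ifi47* had 5825 reads in control and 4430 in RV-Cre cells, a log2 ratio of -0.22 (0.858, 0.825 to 0.893). *Gbp2*, a guanylate-binding protein, had 4079 and 3422 reads, a log2 ratio of -0.08 (0.947, 0.904 to 0.991). The log2 ratio of *Gbp2* was positive with library totals without *Rn45s* (0.012), quantile (0.018), loess (0.086) and *Gapdh* scaling (0.34). Under *Gapdh* scaling that of *Ifi47* was positive too (0.20). *Igtp*, encoding IRGM3, had 3274 and 2947 reads, a log2 ratio of 0.02 (1.02, 0.966 to 1.07). The ratios of these genes thus stayed within a narrow band around 1. *Gbp3* had 113 and 112 reads with an interval that included 1, and *Gbp7* 187 and 231, a log2 ratio of 0.48 (1.39, 1.14 to 1.70).

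*Iigp1* and *Irgm1* were the 2 GTPases at least 2-fold lower, beside 12.3% of all rows kept. The interval lay below 1 for 4 of the 7, *Ifi47* and *Gbp2* among them, beside 38.1% of all rows kept. *Iigp1*, encoding IRGA6, an effector GTPase that loads onto the parasite vacuole, had 2961 reads in control and 815 in RV-Cre cells, a log2 ratio of -1.69 (0.311, 0.287 to 0.336). *Irgm1* (chr11:48861968-48871683), which regulates the effector GTPases, had 258 and 93 reads, a log2 ratio of -1.29 (0.407, 0.317 to 0.518). The median ratio of the 7 GTPases was -0.08, beside -0.01 over all rows kept. It was positive under 4 other scalings (0.012 to 0.34), of which *Gapdh*, library totals without *Rn45s* and quantile normalization also raised the median of all rows, by 0.42, 0.09 and 0.09. Reads of *Igtp* and *Irgm2* could be mixed, since their exons overlap on the same strand. The same holds for *Ifi47* and *Olfr56*, and for *Gbp7* and *Gm43802*.

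The 3 PARP9-DTX3L genes had intervals above 1, as did 36.7% of all rows kept. *Parp14* (chr16:35832874-35871544), an ADP-ribosyltransferase that acts with STAT6 in T cells, had 632 and 1136 reads, a log2 ratio of 1.02 (2.03, 1.84 to 2.24). *Dtx3l*, a ubiquitin ligase, had 1055 and 1459 reads, a log2 ratio of 0.64 (1.56, 1.44 to 1.69). *Parp9*, its partner, had 548 and 706 reads, a log2 ratio of 0.54 (1.45, 1.30 to 1.63). All 3 lie in 1 stretch of chromosome 16. Exons of *Parp9* and *Dtx3l* overlap on opposite strands and those of *Parp14* overlap *Gm49730* on the same strand, so these are not fully separate measurements.

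**Figure D3:**
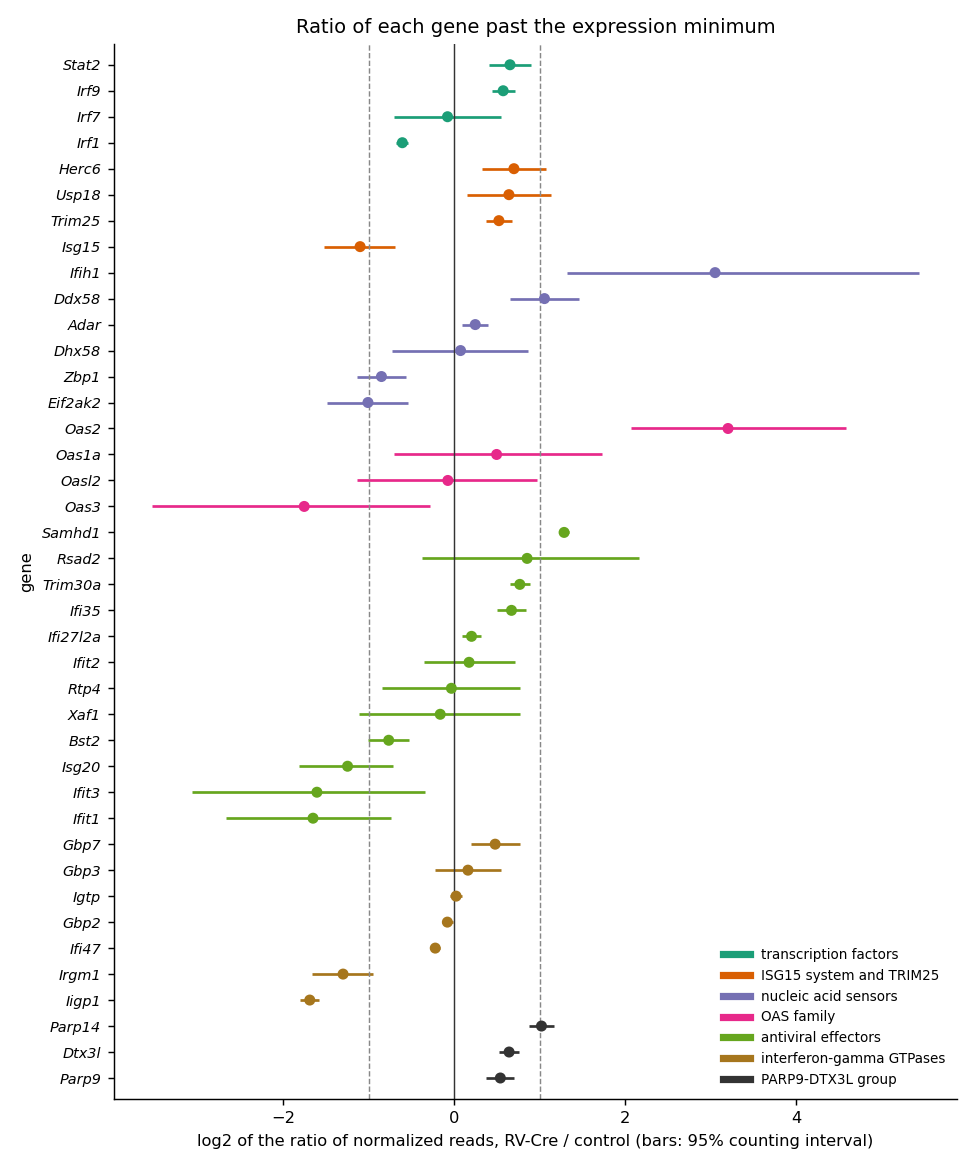
Log2 of the ratio of normalized reads, RV-Cre to control (horizontal axis), of the 40 members kept (vertical axis, coloured by role), with bars for the 95% counting interval, a solid line at no difference and dashed lines at 2-fold. The 3 PARP9-DTX3L genes lie to the right of 0, the GTPases range from *Iigp1* far to the left to *Gbp7* to the right, and the widest bars belong to genes of few reads such as *Ifih1* and *Oas3*.

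Members with and without an ISRE were found on both sides. Of the 17 kept members with the motif, 2 were at least 2-fold higher and 5 lower, with a median of 0.02, and the interval lay above 1 for 5 and below 1 for 8. Of the 14 kept members in the promoter table without it, 1 was higher and 1 lower, with a median of 0.21, and the interval lay above 1 for 7 and below 1 for 3. Over all rows kept the interval lay above 1 for 36.7% and below 1 for 38.1%. The difference between these sets was not tested. Among the kept rows that were matched in the promoter table, which are fewer than all rows kept, 345 had the motif. Of these 345, 17.7% were higher and 15.4% lower, with a median of -0.04. The 8809 matched rows without it gave 13.6% and 11.5%. The called members with the motif were *Ifih1* and *Ddx58* among the higher and *Isg15*, *Ifit1*, *Ifit3*, *Oas3* and *Irgm1* among the lower. Of these, *Ifih1*, *Ifit1*, *Ifit3* and *Oas3* were kept through 1 library only, so the counts of calls partly follow from the minimum. The match lies after the RefSeq start in *Ifih1* and *Ddx58*, and before it in the 5 lower members. Of the 11 kept members with a GAS, 1 was higher and 1 lower, with a median of 0.17. Of the 20 without it, 2 were higher and 5 lower, with a median of 0.05. These counts stand beside 14.2% and 12.3% of all rows kept, and their difference was not tested either.

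Several members belong to clusters of related genes, which were set out after the values were seen. Their counts are a description, stand beside 14.2% higher and 12.3% lower over all rows kept, and show nothing particular to a cluster. *Oas1c*, *Gbp9* and *Gm12185* reached the minimum in 1 library only. Among the Trim genes of chromosome 7 none of the 6 kept genes was lower and 3 were at least 2-fold higher. There *Trim34a* had 85 and 367 reads, *Trim12a* 49 and 233, and *Trim30d* 96 and 176, beside the member *Trim30a*. Among the Irg genes of chromosome 11, 3 of 8 were lower. These were *Irgm1*, *Irgm2* with 271 and 83 reads, and *Gm12185* with 24 and 0, where the interval allows a ratio of up to 0.187. *Tgtp1*, with 670 and 501 reads, and *Tgtp2*, with 1120 and 746, were lower by less than 2-fold. Of the 4 Gbp genes kept on chromosome 3, which include all 3 Gbp members, none passed 2-fold, and of the 5 Gbp genes kept on chromosome 5, 3 were lower. The 3 were *Gbp10* with 147 and 25 reads, *Gbp6* with 148 and 64, and *Gbp9* with 31 and 12. In the Oas cluster *Oas1c*, with 12 and 33 reads, was higher together with *Oas2*. The spans of *Gm12185* and *Tgtp1* overlap, as do those of *Gbp8*, *Gbp9* and *Gbp4*, so reads could be mixed among them. Over all paralogues of members, 18 were kept, of which 2 were higher and 5 lower, with a median of -0.20.

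**Figure D4:**
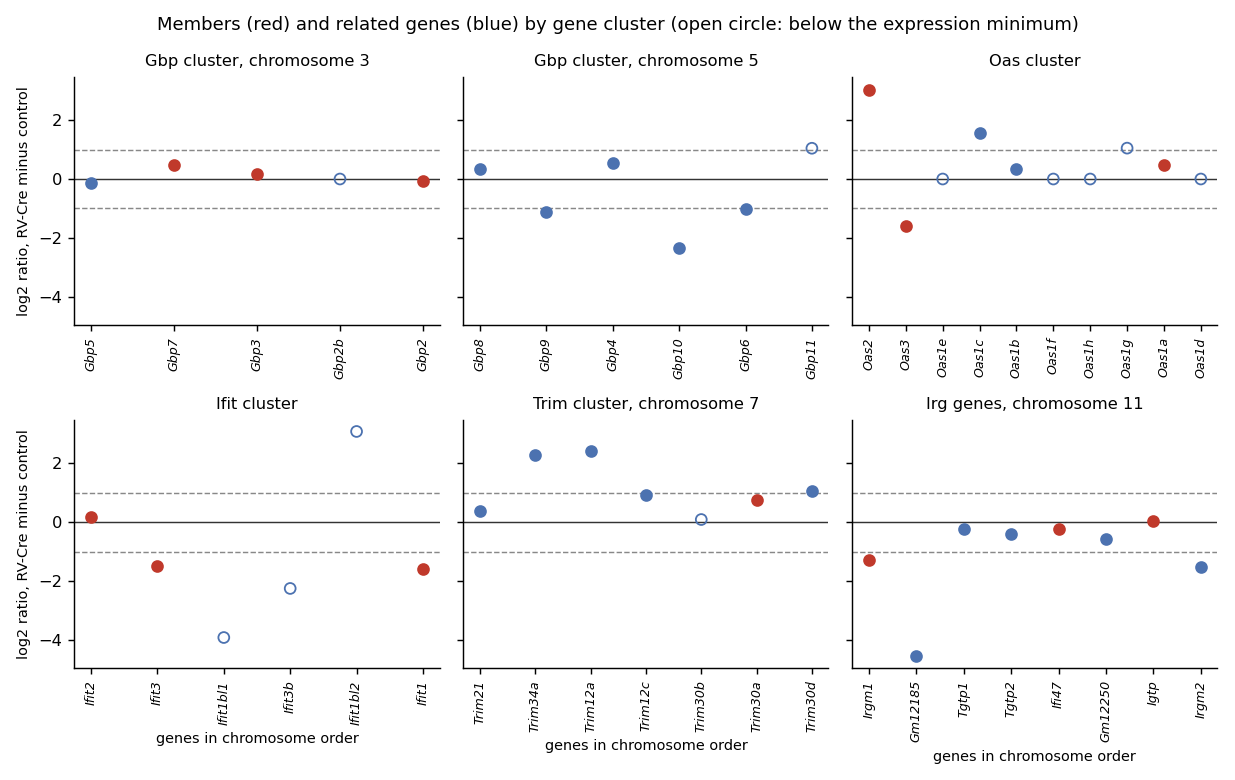
Log2 ratio of RV-Cre to control (vertical axis) of members (red) and related genes (blue) in 6 gene clusters, with genes in chromosome order (horizontal axis), open circles for genes below the expression minimum and dashed lines at 2-fold. The 6 filled points of the Trim cluster lie above 0, *Irgm1*, *Gm12185* and *Irgm2* lie below the lower line, and *Oas2* and *Oas3* lie on opposite sides.

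The upstream pathway was described from lists of ligands, receptors, inhibitors and inducers. Of 10 ligand genes, *Ifng* was the one that reached the minimum, with 126 reads in control and 41 in RV-Cre cells, a log2 ratio of -1.42 (0.367, 0.252 to 0.526). *Ifnk* had 7 and 0 reads, and the other 8, *Ifnb1* and 4 *Ifna* genes among them, had 0 in both. The IFN-γ gene was therefore lower, in cultures that contained an antibody to its product.

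Of the 8 kept genes of the receptor and JAK list, 2 were at least 2-fold higher, beside 14.2% of all rows kept, and the median was 0.66. This list was shortened by 1 gene after its values had been seen, so its count and median are a description only. *Ifngr1*, the ligand-binding chain of the IFN-γ receptor, had 552 and 1277 reads, a log2 ratio of 1.38 (2.61, 2.36 to 2.89). *Jak1*, which serves both interferon types and IL-6, had 5144 and 11239 reads, a log2 ratio of 1.30 (2.47, 2.39 to 2.55). *Ifnar1* had 294 and 498 reads, a log2 ratio of 0.93, and *Ifngr2* 229 and 381, a log2 ratio of 0.91. The other receptor chain and the kinases differed less. *Ifnar2* had 668 and 665 reads (log2 ratio 0.17), *Tyk2* 324 and 383 (0.41), *Jak2* 1893 and 1790 (0.09), and *Il10rb* 271 and 254 (0.08). So the lower *Ifng* stood beside higher *Ifngr1*.

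Of the 15 inhibitors 1 was at least 2-fold higher and 1 lower, beside 14.2% and 12.3% of all rows kept, with a median of 0.03. *Ptpn2*, a phosphatase of JAKs and STATs, had 1174 and 485 reads, a log2 ratio of -1.10 (0.466, 0.419 to 0.519). *Irf2*, which competes with IRF1 for the same sites, had 873 and 1718 reads, a log2 ratio of 1.15 (2.22, 2.05 to 2.41). *Irf1* and *Irf2* thus differed in opposite directions. *Socs1*, an IFN-inducible inhibitor of JAKs, had 1531 and 901 reads, a log2 ratio of -0.59, and *Socs3*, the inhibitor of IL-6 receptor signalling, 2358 and 3375, a log2 ratio of 0.69.

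The sensors and adaptors that induce interferon had a median of -0.04 over 18 kept genes, with 2 higher and 1 lower, again beside 14.2% and 12.3%. *Rnf135*, a ligase that activates RIG-I, had 22 and 74 reads, a log2 ratio of 1.87 (3.80, 2.33 to 6.42), and was higher together with *Ddx58*. *Ikbke*, encoding the kinase IKKε, had 177 and 414 reads, a log2 ratio of 1.39 (2.64, 2.21 to 3.17). *Unc93b1*, a chaperone of endosomal Toll-like receptors, had 72 and 30 reads, a log2 ratio of -1.07, and *Traf6*, an adaptor ligase, 1165 and 655, a log2 ratio of -0.66.

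A wider list of 98 interferon-stimulated genes outside the 45 had a median of 0.14 over 87 kept rows, beside 0.17 for the members. Of these, 14 were at least 2-fold higher and 14 lower, beside 14.2% and 12.3% of all rows kept, and the interval lay above 1 for 39 and below 1 for 31, beside 36.7% and 38.1%. The most extreme were *Ms4a4c* with 2 and 48 reads, a ratio of 27.1 (7.10 to 230), which reached the minimum in the RV-Cre library alone, and *Ms4a4b*, a T cell membrane protein, with 343 and 4047. On the lower side were *Gbp10*, described above, and *Cxcl10*, the chemokine that draws CXCR3+ T cells, with 106 and 19. These genes were named as the most extreme in each direction, so that they lie on both sides follows from the choice.

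**Figure D5:**
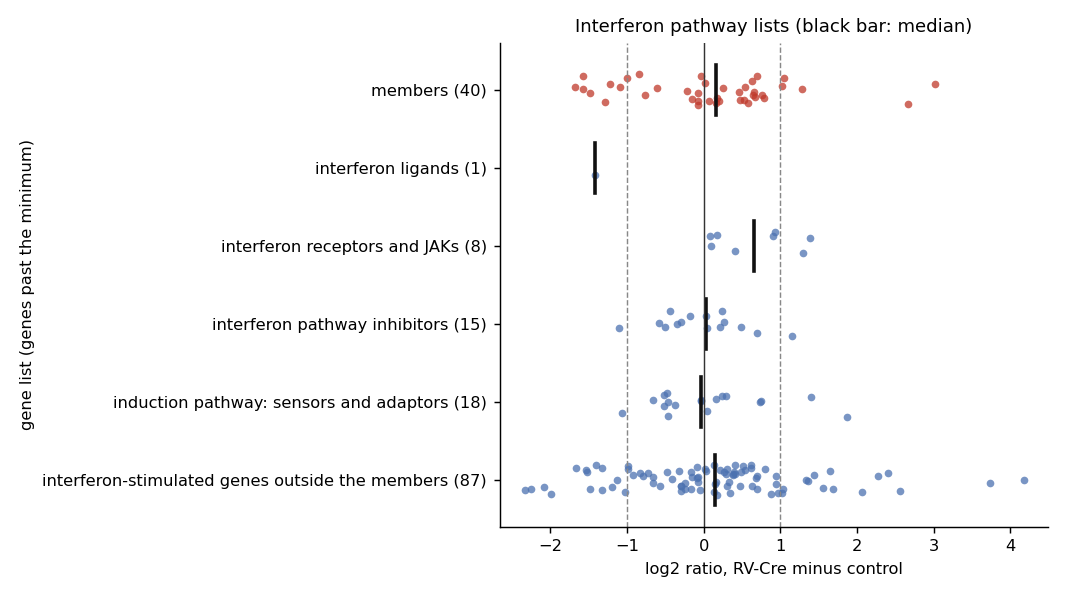
Log2 ratio of RV-Cre to control (horizontal axis) of each gene kept in 6 lists (vertical axis, number of genes in brackets), with a black bar for the median, dashed lines at 2-fold and vertical scatter within a list added for legibility. Members and the wider list spread to both sides of 0, and the receptor and JAK list is shown without the 1 gene that was left out after its values had been seen.

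Genes of other cell types also differed between the libraries. The summed normalized reads of the 5 B cell markers were 39.5 in control and 115 in RV-Cre cells, with *Cd79b* going the other way at 18 and 11 reads and *Pax5* at 0 in both, and those of the 5 monocyte and macrophage markers 55.5 and 158. Most of the latter difference came from *Csf1r*, with 16 and 110 reads, while *Lyz2* had 22 and 7 and *Itgam* 7 and 3. The 5 stromal markers summed to 249 and 811, most of it from *Pecam1* with 195 and 620 reads, while *Pdgfrb* was at 0 in both. The 5 dendritic cell markers summed to 81.0 and 77.5, with *Itgax* at 27 and 1 reads, *Flt3* at 29 and 47, and *Clec9a* at 0 in both. The 5 NK and CD8 T cell markers summed to 698 and 986, with *Cd8a* at 322 and 580 reads and *Gzma* at 286 and 66. The 4 CD4 T cell markers with a row summed to 8109 and 10426, with *Cd3e* at 1453 and 2884 reads and *Cd4* at 1489 and 1342. In contrast, the 5 Th17 markers summed to 1978 and 694, although *Il23r*, below the minimum, had 9 and 10 reads. The part of these differences in the values of the interferon-stimulated genes was not tested.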

How the data were processed

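RNA from sorted, transduced T cells (500 ng total RNA per sample) was made into 3′ end (QuantSeq) libraries, 1 per condition. The authors deposited raw counts of reads per gene. The submitters' processing notes name bcl2fastq 2.20.0.422, Bowtie2, bedtools and the build mm10 (GRCm38). The annotation, strand setting and filters are not given in the sources used here. No use of molecular identifiers is stated in the sources used here, so intervals and floors cover counting error only. Nothing states whether the libraries came from separate animals.

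Counts were scaled with TMM factors of edgeR 4.0.16 (size factors 1.06 for control and 0.941 for RV-Cre) and placed on log2(normalized reads + 1). Rows were kept at 4 or more in at least 1 library and called at 2-fold. Of all rows, 79 share a symbol with another row. Counting intervals were exact Clopper-Pearson intervals of the split of a gene's reads between libraries (scipy 1.17.1). A count of 0 was taken to allow up to 3 reads. No test across genes was run, since each condition had 1 library. The interval procedure was run on simulated counts that held counting error only, which cannot show how it covers variation between libraries. Reads were marked uncertain where exons overlap another gene in GENCODE M21, or where at least 10% of 50-base words in the last 500 bases occur in another gene. RefSeq promoters (GRCm38.p6) were matched by symbol for 34 members. *Zbp1*, *Parp14*, *Parp9*, *Usp18*, *Mx1*, *Oas2*, *Iigp1*, *Rtp4*, *Ifi27l2a* and *Dhx58* had no entry in the table. Printed promoter stretches stop before the first annotated transcript. The members and lists were chosen with earlier results of these data known, and the list of receptors and JAKs was shortened by 1 gene, not reported here, after its values had been seen. All members were named, with full values for those called at 2-fold and for the 2 of most reads in each role group, and the 2 most extreme kept genes in each direction were named from each list, with further fixed pathway genes. The alternatives tried were other expression minimums, folds, pseudocounts, scalings and interval levels, and leaving out members of uncertain reads.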

Additional observations from a re-analysis of the deposited data

How the results depend on the processing

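No paired analysis was possible because there was a single library on each side. Each setting was compared with the values above, in which 5 members were higher and 7 lower. With the minimum raised to 6, or required in both libraries, 3 were higher and 4 lower (all rows: 7.58% and 11%, and 7.19% and 10.4%). At a 1.5-fold threshold 12 were higher and 11 lower (all rows: 23.5% and 22.9%), and at 3-fold 2 and 1 (8.32% and 5.52%). With no minimum 5 were higher and 10 lower (20.7% and 15.5%). With no minimum the median was -2.17 for the 2 ligands with any reads, *Ifng* and *Ifnk*. Scaling by *Gapdh*, which shifted the median of all rows by 0.42, gave 12 higher and 4 lower (all rows: 24.3% and 6.4%), and medians of 0.58 for the members, 0.34 for the IFN-γ GTPases, 1.06 for the PARP9-DTX3L group, 0.44 for inhibitors, 0.38 for sensors and adaptors, 0.56 for the wider list and 0.22 for paralogues of the members, which had a median of -0.20 under TMM. The GTPase median was 0.012 with library totals without *Rn45s*, 0.018 with quantile and 0.051 with loess normalization. Without members of uncertain reads 21 were kept, of which 4 were higher and 6 lower (all rows kept: 14.2% and 12.3%). Of their intervals 8 lay above 1 and 8 below (all rows kept: 36.7% and 38.1%). A minimum on the mean of both libraries, added after seeing the data, gave 4 higher and 5 lower (all rows: 9.74% and 11.4%). All 12 called members kept their direction under every scaling and pseudocount tried, which largely follows from their choice at 2-fold or more. A pseudocount cannot change the sign of a ratio, and the largest median shift of all rows by a scaling was 0.42. *Isg15*, *Isg20* and *Irgm1* were less than 2-fold lower under *Gapdh* scaling (-0.67, -0.81 and -0.87), *Isg15* fell just short of 2-fold with library totals without *Rn45s* (-0.999), *Ddx58* less than 2-fold higher under loess (0.94) and with a pseudocount of 10 (0.97), and *Oas3* and *Ifit3* less than 2-fold lower with that pseudocount (-0.86 and -0.90). *Eif2ak2* was called lower with library totals, DESeq2 size factors, a pseudocount of 0.1 and loess (-1.14 to -1.004), which gave 8 lower members each. Depth limits the members of few reads: 11 of the 40 kept had a mean below 5 on the log2 scale. Of these 11, 2 were higher (*Ifih1* and *Oas2*) and 3 lower, with a median of -0.03. Of all 1990 rows kept at that level, 994 were higher and 413 lower, with a median of 0.99, and 1539 were kept through 1 library only. High ratios were thus common among rows of few reads.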
